A study of Mus musculus with 10 samples.

Results

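Phase II conjugation enzymes attach a polar group to drugs, toxins, hormones and bile pigments, so that the product can be pumped out of the cell and excreted. Glutathione S-transferases (GSTs) add glutathione to electrophiles, sulfotransferases (SULTs) add sulfate from the donor PAPS, and UDP-glucuronosyltransferases (UGTs) add glucuronic acid from UDP-glucuronate. The colonic epithelium expresses all of these superfamilies and faces dietary and bacterial compounds from the lumen. The GST classes carry Greek letters (alpha, mu, pi, theta, omega, zeta, kappa), and the UGTs fall into the UGT1A locus, whose genes share their last exons, and the UGT2 genes.

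The genes were chosen by name, as every row of the expression table whose symbol starts with Ugt1a, Ugt2a, Ugt1b or Ugt2b, with a GST class letter and a number, or with Sult and a number. This gave 69 of the 55487 genes in the table, of which 23 were GST, 27 SULT and 19 UGT genes, and 7 of the 69 are annotated pseudogenes. Expression was given as TPM, a transcript level that is scaled for transcript length and to nearly the same total in each library, and keeps no sequencing depth. Of the 69 genes, 34 reached a mean TPM of 1 over the 10 libraries and entered the test, namely 19 GST, 5 SULT and 10 UGT genes. The other 35 lay below this limit.

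The libraries were made from intestinal epithelial cells (IECs) stripped from the colon of untreated mice, 5 labelled wild type (WT) and 5 labelled RhoB-/-, all on the C57BL/6J background. RhoB is a small GTPase, and the RhoB-/- mice lack it in the whole body, so the comparison asks how colonic epithelial expression differs without RhoB but cannot place the effect in the epithelium. The study used mice 6 to 8 weeks old. It bought male WT mice from another supplier than the RhoB-/- line, and the sources do not say that the WT mice sequenced were littermates, so breeding origin and genotype cannot be told apart. The sex of the RhoB-/- mice sequenced and the stretch of colon taken were not given in the sources used here. The labels list separate samples without saying that each came from a separate mouse, so the p-values measure the spread between these samples.

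The targeted gene Rhob had a TPM of 170.5 to 388.7 in the WT libraries and of 0.09, 0.10, 0.35 and 0.57 in RhoB-/- replicates 1 to 4. In the library labelled RhoB-/- replicate 5 it was 110.9, which goes against the label, so results are also given without that library. Mitochondrial genes took 17.5% to 26.5% of TPM in WT and 10.3% to 22.4% in RhoB-/- libraries. Markers of epithelium summed to a TPM of 8518 to 13442, whereas the hepatocyte genes Serpina1a, Fgb and Cyp2e1 were at 0 in every library and Alb did not exceed 0.97. Of the other hepatocyte genes, which the gut can also express, Tat rose and Ttr fell. Because the cells were sequenced in bulk, fewer cells of a type and less RNA per cell cannot be told apart.

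Several marker lists moved with genotype, and their part in the results below was not tested. Of the distal colon genes, 5 of 6 were in the table and their summed TPM was 56.1 to 161.4 in WT and 15.9 to 39.9 in RhoB-/- libraries, without overlap. Most of that sum came from Hoxb13 (means of 81.3 in WT and 23.15 in RhoB-/- libraries), and the groups overlapped for each Hoxd gene. Of the 2 that entered the test, Hoxb13, a homeobox gene of the most distal gut, was lower (log2 fold change -1.76, limma adjusted p = 0.00113), and Hoxd13 had -0.91 with an adjusted p of 0.125. The 12 small intestine genes summed to 787.1 to 1072 in WT and 917.6 to 1722 in RhoB-/- libraries, most of it from Fabp2 (means of 739.6 and 1155). Among them 2 of 5 tested rose, the ileal bile acid transporter Slc10a2 (log2 fold change 1.49, limma adjusted p = 0.00205) and Fabp2 (0.60, limma adjusted p = 0.0490). Defa30 was at 0 in all libraries, and Lct, Apoa4 and Mptx2 stayed at or below 0.22. Sis had mean TPM of 1.15 in WT and 0.75 in RhoB-/- libraries and, at 0.95 over all libraries, was not tested. Immune cell markers summed to 7.14 to 11.97 in WT and 20.5 to 42.7 in RhoB-/- libraries, and 5 of 6 tested rose (Ptprc, Cd3e, Cd3g, Cd8a and Cd68). The 11 differentiated colonocyte markers summed to 15694 to 23131 in WT and 20223 to 35902 in RhoB-/- libraries, and 6 of them rose. The 8 crypt base and cycling cell markers summed to 204.5 to 274.9 and 117.2 to 252.4, and 2 fell. Enteroendocrine and tuft cell markers summed to 178.5 to 230.9 and 86.4 to 172.7, mostly from Chga and Chgb. Of the 5 tested, 2 were lower, the enteroendocrine genes Chga (log2 fold change -0.69) and Chgb (-0.84). The tuft cell gene Trpm5 was higher (0.78), so the sum does not describe tuft cells. Of 6 goblet cell markers 2 rose. The 9 stroma, muscle and vessel markers summed to 2.29 to 3.18 in WT and 2.02 to 12.05 in RhoB-/- libraries. The highest sum was in the library labelled RhoB-/- replicate 5, which also had the highest TPM of the B cell gene Cd79a (6.09). Only 1 of the 9, Col3a1, was tested, and it was not called.

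The genotypes were compared with limma on log2(TPM + 1) over all 12870 genes that reached this mean TPM, with Benjamini-Hochberg adjustment over all of them. A gene was called higher or lower at an adjusted p below 0.05 and a fold change above 1.5. All log2 fold changes are RhoB-/- over WT on this scale, and they come out too small for weakly expressed genes. The tested genes as a whole were centred slightly below 0, with a median of -0.13 and 65.4% of them below 0. The 34 conjugation genes had a median of -0.26, with 24 below 0 and 10 above it.

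In RhoB-/- IECs 11 of the 34 tested conjugation genes fell and 2 rose. In comparison, 7.13% of all tested genes were called lower and 5.58% higher. The 11 were Gstm1, Gstm2, Gstm3, Gstm4, Gstm6 and Gstm7 of the mu class, Gsta3 and Gsta4 of the alpha class, Gstt1, Gstz1 and the sulfotransferase Sult1c2, and the 2 that rose were Sult2b1 and Ugt1a1. For 9 of the 11 every RhoB-/- library was below every WT library, as was so for 8.55% of all tested genes, and for Sult2b1 the groups also did not overlap in the other direction, as for 5.97% of all. By superfamily, 10 of 19 GST genes fell and none rose, while of 5 SULT genes 1 fell and 1 rose, and of 10 UGT genes none fell and 1 rose. Without the library labelled RhoB-/- replicate 5, 10 genes fell and 1 rose, and the calls of Gsta4 and Ugt1a1 were lost.

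**Figure D1:**
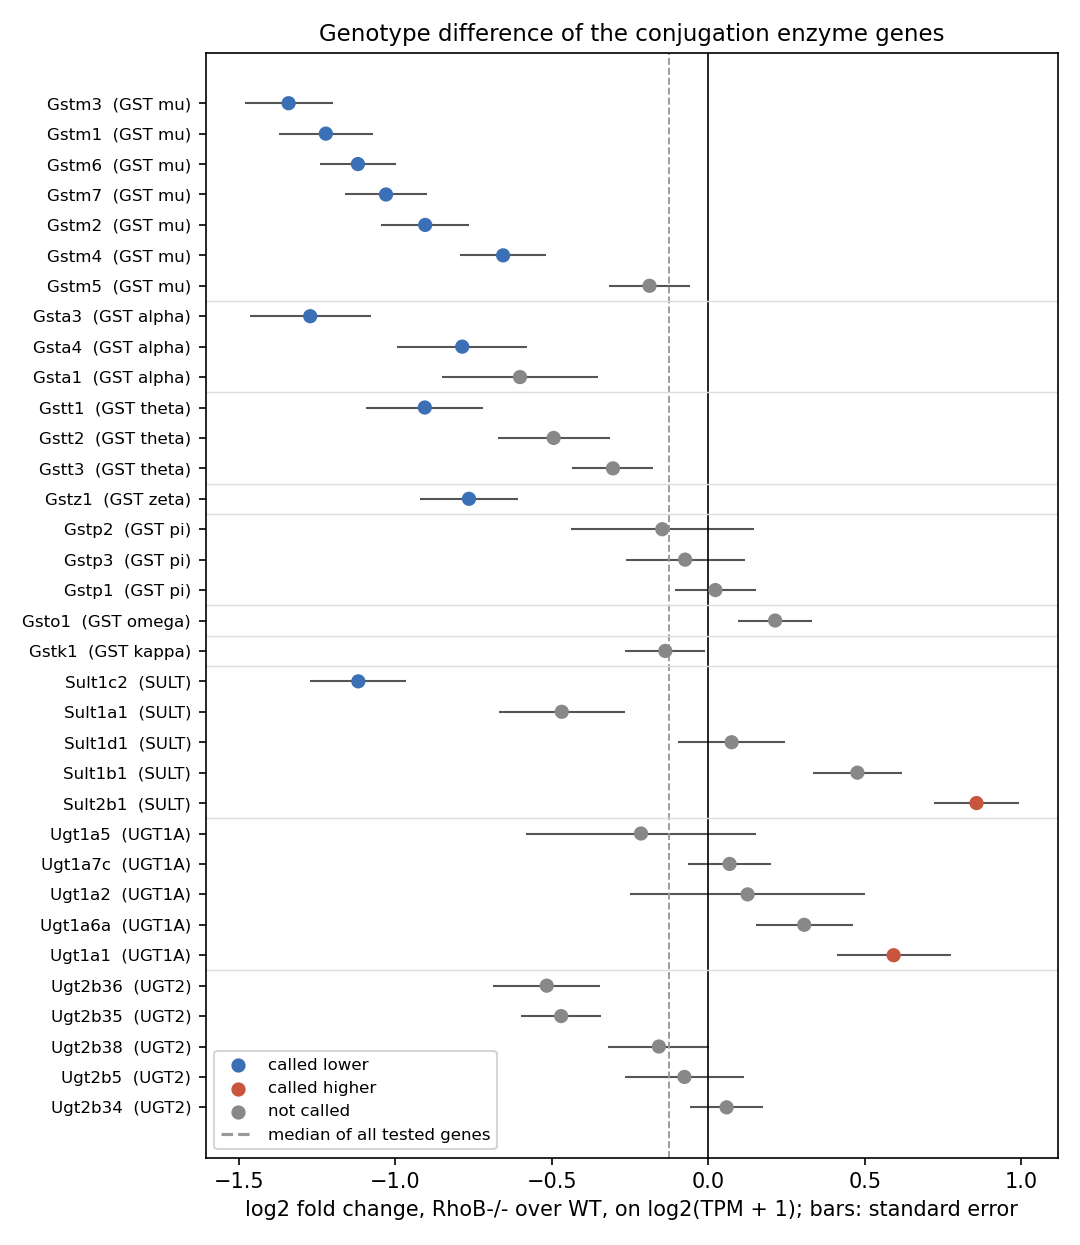
Log2 fold change (RhoB-/- over WT, horizontal axis) of the 34 tested conjugation genes, grouped by family, with points at the limma estimate and bars of 1 standard error. Blue points are the 11 genes called lower, red points the 2 called higher, and the dashed line marks the median of all tested genes at -0.13. Gstm3 sits farthest to the left, and all 7 mu genes lie to the left of 0.

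The levels of these genes spanned a wide range, and none of the 5 most abundant was called. Gstp1, a pi class GST that is abundant in many epithelia, had the highest mean TPM at 687.0. Its TPM was 642.2, 639.9, 745.6, 757.6 and 612.9 in WT replicates 1 to 5 and 538.6, 659.8, 767.0, 810.2 and 696.5 in RhoB-/- replicates 1 to 5, so that the groups lay on top of each other. Its log2 fold change was 0.02, with a 95% interval of -0.26 to 0.31 (limma adjusted p = 0.917). Gsto1, an omega class GST that reduces dehydroascorbate, followed at a mean of 502.4. Its TPM was 410.6, 497.7, 513.1, 454.2 and 446.6 in WT and 444.7, 515.5, 602.0, 532.4 and 607.5 in RhoB-/- libraries (log2 fold change 0.21, limma adjusted p = 0.207). The groups overlapped for Gsto1, although 4 of 5 RhoB-/- libraries exceeded the highest WT library.

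Sult1a1, the main phenol sulfotransferase, came next at a mean TPM of 228.9. It had a TPM of 166.4, 344.9, 269.9, 312.3 and 242.9 in WT and 202.0, 150.6, 254.1, 157.8 and 188.6 in RhoB-/- libraries, and its log2 fold change of -0.47 did not pass the test (limma adjusted p = 0.114). WT replicate 1 had the lowest WT level, and without it Sult1a1 was called lower (-0.63, limma adjusted p = 0.0265). Ugt2b34 and Ugt1a7c were the most abundant UGT genes. Ugt2b34 had a TPM of 158.8, 208.6, 200.3, 208.9 and 210.8 in WT and 189.3, 190.3, 213.7, 191.8 and 242.5 in RhoB-/- libraries (log2 fold change 0.06, 95% interval -0.19 to 0.31). Ugt1a7c had a TPM of 165.1, 185.2, 209.3, 218.6 and 199.8 in WT and 163.3, 186.4, 199.8, 233.4 and 249.2 in RhoB-/- libraries (log2 fold change 0.07, 95% interval -0.22 to 0.36). Both pairs of groups overlapped. Neighbours in this order differed by little, since Ugt2b34 and Ugt1a7c had mean TPM of 201.5 and 201.0. Much of the Ugt1a7c sequence also occurs in Ugt1a6a, as described below, so the level of Ugt1a7c rests on how reads were divided.

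The 5 most abundant genes took 50.1% to 52.4% of the summed TPM of all conjugation genes in WT and 54.9% to 57.4% in RhoB-/- libraries. That sum was 3044 to 3891 in WT and 2681 to 3667 in RhoB-/- libraries, between 0.271% and 0.401% of all TPM. GST genes made up 61.7% to 68.2% of it in WT and 55.3% to 61.1% in RhoB-/- libraries. UGT genes made up 16.5% to 20.2% and 20.03% to 23.5%, and SULT genes 15.001% to 20.2% and 17.3% to 22.9%.

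**Figure D2:**
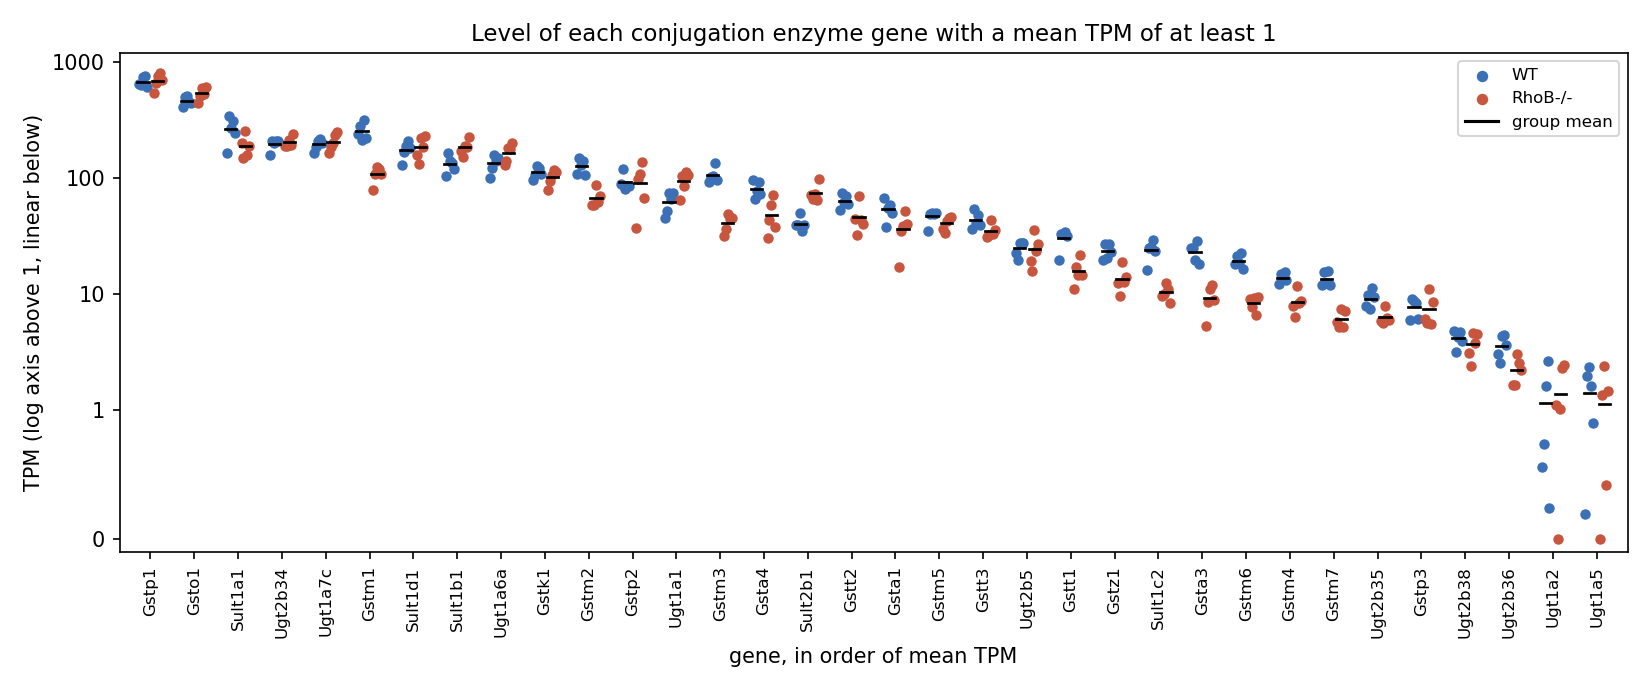
TPM of the 34 tested conjugation genes in each of the 10 libraries (vertical axis, logarithmic above 1 and linear below), in order of mean TPM. Blue points are WT, red points RhoB-/- libraries and black lines group means. Gstp1 and Gsto1 lead in both genotypes with overlapping points, and the points separate at Gstm1, Gstm2, Gstm3 and several lower genes.

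The mu class GSTs, which conjugate epoxides and other electrophiles, carried the largest group difference. Their 7 expressed genes form a cluster on mouse chromosome 3 (chr3:107895821-108044894, GRCm38), in which Gstm5 lies on the plus strand and Gstm7, Gstm6, Gstm3, Gstm2, Gstm1 and Gstm4 follow on the minus strand. Of the 7, 6 fell and Gstm5 did not pass the test. The summed TPM of the class was 515.9, 635.1, 544.4, 695.3 and 515.7 in WT and 229.8, 257.2, 331.7, 292.3 and 295.7 in RhoB-/- libraries, a ratio of the means of 0.484. Every RhoB-/- library was below every WT library. The class made up 23.4% to 28.0% of GST TPM in WT and 13.6% to 15.4% in RhoB-/- libraries.

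The stretches of 120 bases next to 4 of these genes are shown, namely 3 of the 6 that fell and their neighbour Gstm5, which did not pass the test. Gstm2, Gstm4 and Gstm7, which also fell, are not shown. They are from RefSeq on GRCm38.p6, 5′ to 3′ on the strand of the gene, and end at the base before the GENCODE gene boundary. Capitals mark matches to the core of the antioxidant response element (TGACNNNGC) or to the core of the xenobiotic response element (GCGTG, or CACGC on the other strand). They lie at chr3:108017974-108018093 for Gstm1, chr3:107969284-107969403 for Gstm3, chr3:107943750-107943869 for Gstm6, all on the minus strand, and chr3:107895701-107895820 on the plus strand for Gstm5.
Gstm1: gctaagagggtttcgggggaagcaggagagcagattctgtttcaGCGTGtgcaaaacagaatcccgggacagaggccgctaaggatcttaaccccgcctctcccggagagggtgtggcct
Gstm3: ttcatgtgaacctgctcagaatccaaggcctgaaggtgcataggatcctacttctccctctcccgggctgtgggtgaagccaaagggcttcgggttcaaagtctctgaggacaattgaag
Gstm6: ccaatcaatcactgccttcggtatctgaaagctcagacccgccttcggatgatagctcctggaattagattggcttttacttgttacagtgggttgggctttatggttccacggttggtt
Gstm5: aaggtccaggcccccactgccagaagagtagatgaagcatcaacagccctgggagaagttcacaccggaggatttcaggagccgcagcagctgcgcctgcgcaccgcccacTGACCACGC
Only the stretches of Gstm1 and Gstm5 held a match, and in Gstm5 the xenobiotic core lies inside the antioxidant one. RefSeq promoters were found for 55 of the 69 genes and 32 of the 34 tested, and the 250 bases before each start were searched on both strands. These 55 genes had 66 promoters, and a gene counted if any of its promoters held the letters. The shares of all are per promoter, so they are not the same measure as the counts of genes. The antioxidant core was in 2 of 7 mu genes (Gstm5 and Gstm7), 2 of 10 matched genes called lower and 3 of 32 tested, compared with 10.2% of all 32851 promoters. The xenobiotic core was in 2 of 7 mu genes (Gstm1 and Gstm5), 1 of 10 called lower and 8 of 32 tested, compared with 28.2% of all. The TATA box letters TATAAA were in 2 of 32 tested genes (Gstm1 and Gstm7) and in 12.4% of all promoters. A match is only a run of letters, and its absence says only that these letters are not in the window.

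Gstm1 was the most abundant mu gene. Its TPM was 238.1, 280.9, 215.0, 317.7 and 221.3 in WT and 79.7, 108.8, 124.8, 120.1 and 109.4 in RhoB-/- libraries, so that the highest RhoB-/- library lay well below the lowest WT library. Its log2 fold change was -1.22 (SE 0.15, limma adjusted p = 2.32e-04). Gstm2 had a TPM of 108.0, 150.1, 130.6, 140.9 and 106.6 in WT and 59.0, 59.1, 87.0, 62.7 and 70.1 in RhoB-/- libraries (log2 fold change -0.90, SE 0.14, limma adjusted p = 0.00120). Here RhoB-/- replicate 3 came closest to the WT range without entering it.

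Gstm3 showed the largest change among the conjugation genes. It had a TPM of 92.3, 103.1, 104.0, 134.2 and 95.9 in WT and 31.9, 36.3, 49.1, 44.1 and 45.0 in RhoB-/- libraries, with a log2 fold change of -1.34 (SE 0.14, limma adjusted p = 7.06e-05). WT replicate 4 stood above the other WT libraries. The less abundant Gstm6 and Gstm7 followed the same pattern. Gstm6 had a TPM of 18.2, 21.4, 18.6, 22.5 and 16.4 in WT and 9.04, 7.73, 9.22, 6.63 and 9.41 in RhoB-/- libraries (log2 fold change -1.12, SE 0.12, limma adjusted p = 8.94e-05). Gstm7 had a TPM of 11.97, 15.56, 12.39, 15.88 and 11.99 in WT and 5.72, 5.20, 7.51, 5.18 and 7.10 in RhoB-/- libraries (log2 fold change -1.03, SE 0.13, limma adjusted p = 3.15e-04). No RhoB-/- library reached the WT range in either gene.

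Gstm4 had the smallest change of the 6. Its TPM was 12.33, 15.01, 13.44, 15.37 and 13.26 in WT and 7.85, 6.34, 11.7, 8.31 and 8.65 in RhoB-/- libraries (log2 fold change -0.66, SE 0.14, limma adjusted p = 0.00682). RhoB-/- replicate 3 lay just under the lowest WT library, and without RhoB-/- replicate 2 the fold change fell short of 1.5 (log2 fold change -0.57), as it did after recentring or quantile normalization (both -0.54). Gstm5, at the plus strand end of the cluster, had a TPM of 35.0, 49.0, 50.3, 48.8 and 50.4 in WT and 36.7, 33.7, 42.3, 45.3 and 46.0 in RhoB-/- libraries. The groups overlapped through WT replicate 1, and its log2 fold change was -0.19, with a 95% interval of -0.47 to 0.10 (limma adjusted p = 0.319). Whether Gstm5 differed from the other 6 in its response to genotype was not tested.

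**Figure D3:**
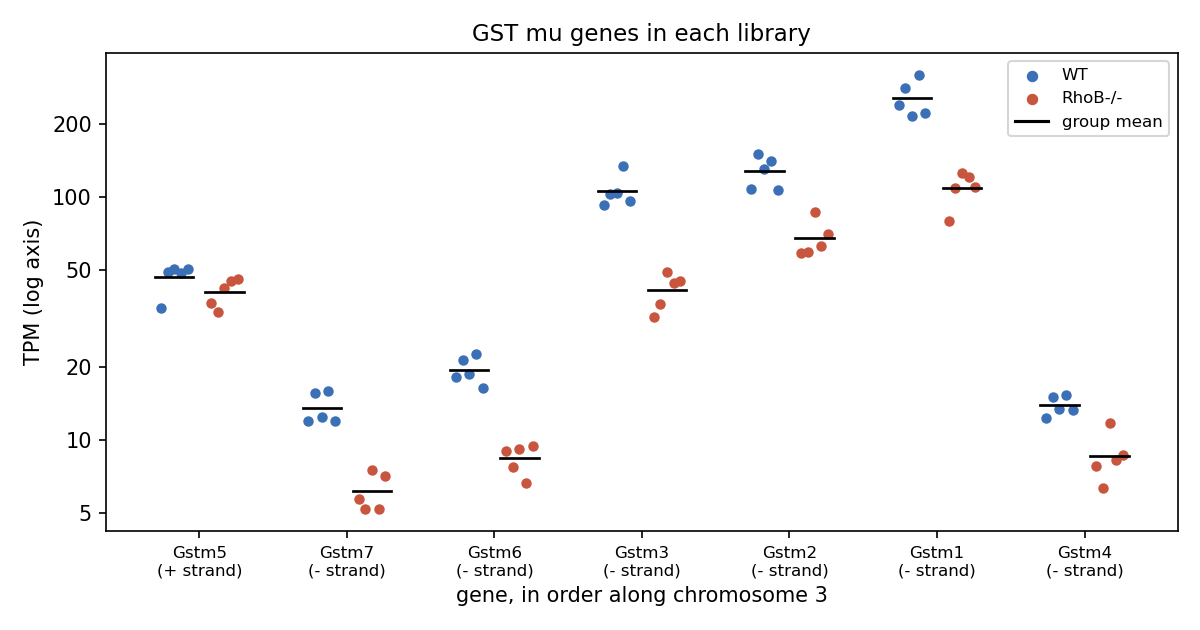
TPM (logarithmic vertical axis) of the 7 expressed GST mu genes in each library, in their order along chromosome 3, with the strand of each gene. Blue points are WT, red points RhoB-/- libraries and black lines group means. The groups are apart in every gene but Gstm5.

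Several mu genes share sequence with each other or with other genes, and reads that fit more than 1 gene are divided by estimation. The share of 50-base windows of the longest annotated transcript that also occur in another gene was 28.8% for Gstm3, 23.1% for Gstm1, 11.5% for Gstm6 and 9.36% for Gstm2, and 0% for Gstm4, Gstm5 and Gstm7. The gene sharing most windows was Gm8834 for Gstm3, the pseudogene Gstm2-ps1 for Gstm1, Gstm3 for Gstm6 and Gm12499 for Gstm2. The genes without shared windows thus included 2 that fell and Gstm5. Without the library labelled RhoB-/- replicate 5, the log2 fold changes of the 6 genes that fell ran from -1.38 (Gstm3) to -0.66 (Gstm4) and all 6 kept their call. The distal colon sum, mostly from Hoxb13, was lower and the immune marker sum higher in the same RhoB-/- libraries. The plot of the mu sum beside these genes shows the libraries by number.

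**Figure D4:**
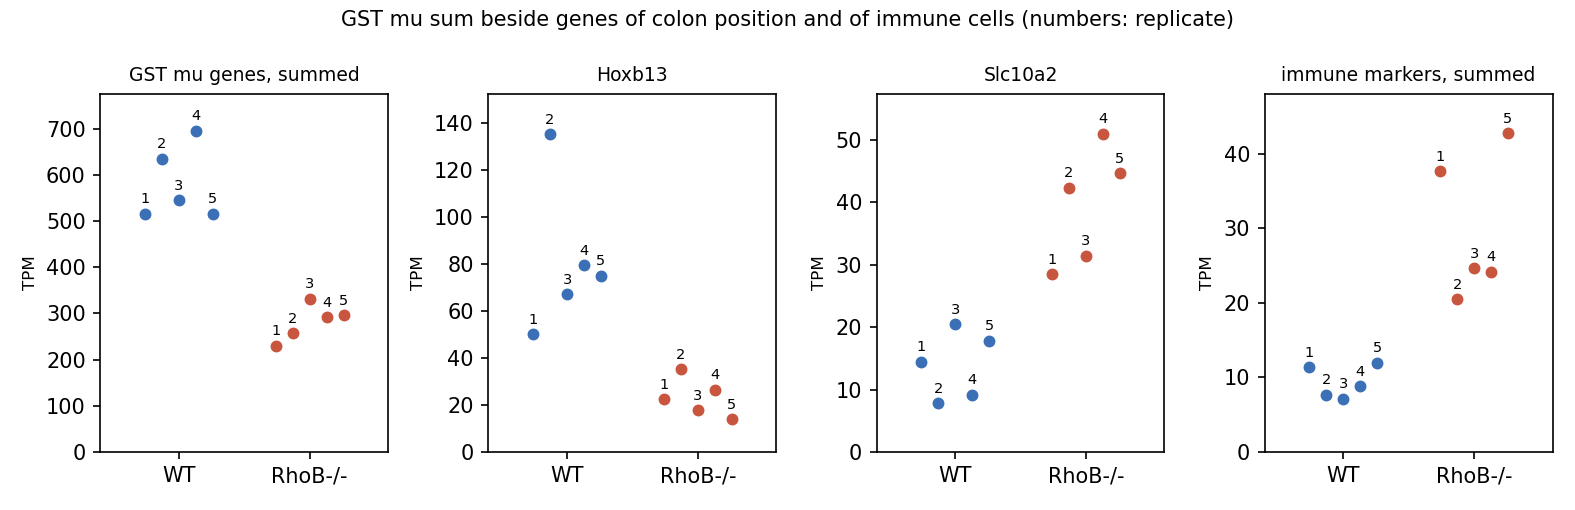
TPM (vertical axes from 0) of the summed GST mu genes, of the distal gut gene Hoxb13, of the ileal transporter gene Slc10a2 and of the summed immune cell markers, with each point a library labelled by its replicate number. In all 4 panels the WT (blue) and RhoB-/- (red) libraries do not overlap. Libraries with the same number are not paired.

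The alpha class GSTs also act on electrophiles, among them products of lipid peroxidation. Gsta3, known in mice for conjugating aflatoxin epoxide, had a TPM of 24.9, 24.9, 19.5, 28.5 and 18.0 in WT and 5.30, 8.50, 11.09, 12.03 and 8.92 in RhoB-/- libraries. The groups did not overlap, and the log2 fold change was -1.27 (SE 0.19, limma adjusted p = 0.00101). Gsta4, which conjugates the lipid aldehyde 4-hydroxynonenal, had a TPM of 95.6, 66.3, 77.9, 92.4 and 73.7 in WT and 30.3, 43.7, 58.4, 71.0 and 38.1 in RhoB-/- libraries (log2 fold change -0.79, SE 0.21, limma adjusted p = 0.0206). RhoB-/- replicate 4 reached into the WT range, and the call was lost without the library labelled RhoB-/- replicate 5 (-0.72, limma adjusted p = 0.0562) or without WT replicate 4 (-0.74, limma adjusted p = 0.0631).

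Gsta1 averaged 53.8 ± 10.97 (SD, n = 5) in WT and 36.5 ± 12.5 in RhoB-/- libraries, and its log2 fold change of -0.60 did not pass the test (limma adjusted p = 0.103). Of its windows 89.7% occur in other genes, most of them in Gm3776, so its level is uncertain. The summed TPM of the alpha class was 128.9 to 187.7 in WT and 53.0 to 134.9 in RhoB-/- libraries, with an overlap. Gsta3 is on chromosome 1 (chr1:21240589-21265661), apart from Gsta4 and Gsta1 on chromosome 9, and neither Gsta3 nor Gsta4 shares a window with another gene.

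Among the other GST classes, Gstt1 of the theta class, which acts on small halogenated compounds, had a TPM of 19.7, 32.9, 32.8, 34.6 and 32.0 in WT and 11.06, 16.99, 14.49, 21.88 and 14.62 in RhoB-/- libraries. WT replicate 1 stood far below the other WT libraries and within the RhoB-/- range. The log2 fold change was -0.91 (SE 0.19, limma adjusted p = 0.00653). Its neighbours on chromosome 10 did not pass the test. Gstt2 averaged 63.8 ± 8.52 (SD, n = 5) in WT and 46.2 ± 14.1 in RhoB-/- libraries (log2 fold change -0.49, limma adjusted p = 0.0676), and Gstt3 43.9 ± 7.13 and 35.2 ± 4.85 (-0.30, limma adjusted p = 0.111). Without RhoB-/- replicate 3, Gstt2 was called lower (-0.65, limma adjusted p = 0.00596).

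Gstz1 encodes maleylacetoacetate isomerase, an enzyme of tyrosine breakdown. It had a TPM of 19.6, 26.9, 20.6, 26.8 and 23.1 in WT and 12.5, 9.71, 18.8, 12.6 and 14.1 in RhoB-/- libraries (log2 fold change -0.77, SE 0.16, limma adjusted p = 0.00649). RhoB-/- replicate 3 came close to the lowest WT library, and the groups did not overlap. Gstk1, a GST of mitochondria and peroxisomes, averaged 111.9 ± 12.4 (SD, n = 5) in WT and 102.1 ± 15.7 in RhoB-/- libraries (log2 fold change -0.14, limma adjusted p = 0.458).

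No pi class gene was called, and whether the class differed from the mu class in its response was not tested. Gstp2 averaged 92.1 ± 16.2 (SD, n = 5) in WT and 90.2 ± 39.2 in RhoB-/- libraries (log2 fold change -0.15, 95% interval -0.78 to 0.49), and Gstp3 7.67 ± 1.55 and 7.37 ± 2.38 (-0.07, 95% interval -0.49 to 0.34). Gstp1 shares 62.3% of its windows with Gstp2, so their split is uncertain, but their sum was 699.2 to 842.6 in WT and 575.5 to 948.9 in RhoB-/- libraries. The pi class made up 33.1% to 35.8% of GST TPM in WT and 39.0% to 44.5% in RhoB-/- libraries, and the omega class 18.3% to 22.1% and 24.9% to 30.7%. Neither share overlapped between genotypes, and shares of the same total are tied, so a lower mu share raises the others.

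The sulfotransferases moved in both directions. Sult2b1, which sulfates cholesterol and other hydroxysteroids, had a TPM of 39.1, 39.2, 50, 35.1 and 39.6 in WT and 71.3, 65.8, 73.6, 64.3 and 98.9 in RhoB-/- libraries. Every RhoB-/- library exceeded every WT library, and the log2 fold change was 0.86 (SE 0.14, limma adjusted p = 0.00136). The highest value came from the library labelled RhoB-/- replicate 5, and without it the log2 fold change was 0.75 (limma adjusted p = 0.00207). Sult1c2, a sulfotransferase of phenolic compounds on chromosome 17, had a TPM of 16.1, 25.2, 25.3, 29.3 and 23.5 in WT and 9.60, 10.1, 12.4, 11.2 and 8.40 in RhoB-/- libraries (log2 fold change -1.12, SE 0.15, limma adjusted p = 4.98e-04). WT replicate 1 was the lowest WT library and still above all RhoB-/- libraries.

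Sult1b1, which sulfates thyroid hormones and phenols, passed the adjusted threshold but not the fold limit, except after recentring (log2 fold change 0.59, limma adjusted p = 0.00147). Its TPM was 104.5, 164.2, 141.6, 136.0 and 120.2 in WT and 170.9, 153.4, 188.0, 186.0 and 228.0 in RhoB-/- libraries (log2 fold change 0.48, limma adjusted p = 0.0338), and 4 of 5 RhoB-/- libraries exceeded the highest WT library. With each library left out in turn, its limma adjusted p was 0.0248 to 0.0764, with the latter value without the library labelled RhoB-/- replicate 5. Sult1d1, which sulfates catecholamines and is the neighbour of Sult1b1 on chromosome 5, averaged 175.1 ± 29.2 (SD, n = 5) in WT and 186.0 ± 41.0 in RhoB-/- libraries (log2 fold change 0.07, limma adjusted p = 0.780). The summed SULT TPM was 456.6 to 742.3 in WT and 513.8 to 756.1 in RhoB-/- libraries.

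**Figure D5:**
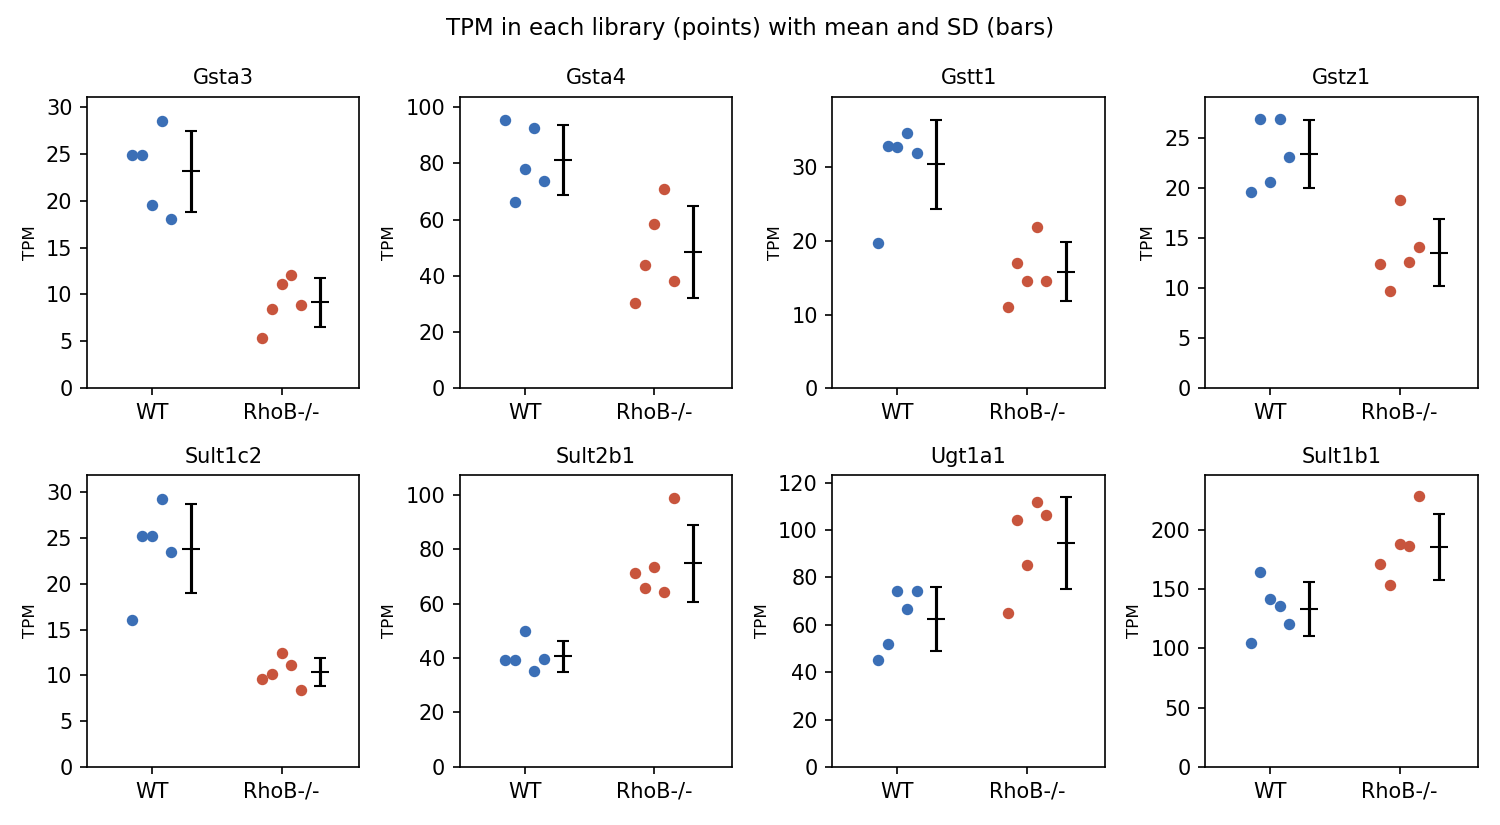
TPM (vertical axes from 0) of Gsta3, Gsta4, Gstt1, Gstz1, Sult1c2, Sult2b1, Ugt1a1 and Sult1b1 in each library, with the mean and SD of each group (n = 5) as bars. WT libraries are blue and RhoB-/- libraries red. The groups are apart in Gsta3, Gstz1, Sult1c2 and Sult2b1 and overlap in the others.

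The UGT1A genes occupy chr1:88055388-88220002 on the plus strand, and each joins a first coding exon to the same last exons. A large part of each transcript therefore cannot tell them apart. Ugt1a6a and Ugt1a7c also have the same first coding exon in their longest transcripts. The stretches around the exon junction of 3 of the 9 genes are shown because this structure limits what the TPM of Ugt1a1 can say. Each line gives 40 bases of the first coding exon in lower case and the 40 bases that follow in all 9 genes in capitals. The capitals mark where the letters common to all 9 genes begin, which is not the junction itself. Their leading AG still belongs to the first coding exon, and the junction follows it. The sequences are from GENCODE M21 transcripts on GRCm38. These exons lie at chr1:88211959-88212871 for Ugt1a1, chr1:88138473-88139331 for Ugt1a6a and chr1:88070800-88071678 for Ugt1a9.
Ugt1a1: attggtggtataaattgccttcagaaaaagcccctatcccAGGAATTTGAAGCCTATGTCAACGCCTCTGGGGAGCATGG
Ugt1a6a: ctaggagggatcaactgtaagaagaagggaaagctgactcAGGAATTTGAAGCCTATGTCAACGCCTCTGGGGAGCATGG
Ugt1a9: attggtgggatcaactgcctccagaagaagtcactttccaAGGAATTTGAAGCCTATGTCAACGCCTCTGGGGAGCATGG
The shared stretch was 1313 bases and made up 39.8% to 60.0% of the longest transcript of each of the 9 genes. In 50-base windows, 58.2% of Ugt1a1, 69.3% of Ugt1a7c and 100% of Ugt1a6a occurred in another gene.

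Ugt1a1, which glucuronidates bilirubin, was the UGT gene that rose. Its TPM was 45.1, 51.8, 74.2, 66.7 and 74.4 in WT and 65.2, 104.4, 85.1, 111.9 and 106.3 in RhoB-/- libraries (log2 fold change 0.59, SE 0.18, limma adjusted p = 0.0383). RhoB-/- replicate 1 lay within the WT range. The fold change was barely above the limit, and without the library labelled RhoB-/- replicate 5 the call was lost (0.54, limma adjusted p = 0.0904), as it also was without WT replicate 1, 2 or 4 or RhoB-/- replicate 2 or 4 (0.48 to 0.62). Ugt1a1 made up 14.3% to 17.5% of UGT1A TPM in WT and 18.1% to 24.1% in RhoB-/- libraries, without overlap. The share of Ugt1a7c was 46.9% to 52.6% in WT and 42.6% to 45.4% in RhoB-/- libraries, also without overlap. Shares of the same total are tied, and reads of the common exons were divided by estimation, so these shares are no separate test.

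The other UGT genes did not meet both thresholds. Ugt1a6a, a UGT of planar phenols, averaged 133.8 ± 22.4 (SD, n = 5) in WT and 165.9 ± 29.7 in RhoB-/- libraries (log2 fold change 0.31, 95% interval -0.03 to 0.64). Ugt1a6a and Ugt1a7c, which share their first coding exon in their longest transcripts, summed to 266.2 to 366.4 in WT and 292.9 to 449.2 in RhoB-/- libraries. Ugt1a2 had a TPM of 1.15 ± 0.967 and 1.38 ± 1.02, and Ugt1a5 1.41 ± 0.868 and 1.13 ± 0.943, and each was listed at 0 in at least 1 RhoB-/- library. At these levels the genotypes could not be told apart.

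Of the UGT2 genes, which act on steroids, bile acids and drugs, Ugt2b35 passed the adjusted threshold with a fold change under 1.5. Its mean TPM was 9.15 ± 1.54 (SD, n = 5) in WT and 6.30 ± 0.881 in RhoB-/- libraries (log2 fold change -0.47, limma adjusted p = 0.0234). Ugt2b36 had a TPM of 3.60 ± 0.820 and 2.22 ± 0.589 (log2 fold change -0.52, limma adjusted p = 0.0506), and was called lower in 4 of the 18 other settings. Ugt2b5 had 25.0 ± 3.70 and 24.3 ± 7.55 (-0.08, limma adjusted p = 0.796), and Ugt2b38 4.17 ± 0.645 and 3.69 ± 0.951 (-0.16, limma adjusted p = 0.501). These genes lie with Ugt2b34, Sult1b1 and Sult1d1 in a stretch of chromosome 5 that holds 13 of the 69 genes, of which 7 entered the test and none was called.

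The 35 genes below the filter were close to silent. Of these, 17 were listed at 0 in all libraries, 15 of them SULT and 2 UGT genes, and the highest mean TPM among the others was 0.730, for Gsto2. The 12 genes of the Sult2a cluster on chromosome 7 (chr7:13623967-14494230), 4 of them pseudogenes and the rest coding for sulfotransferases that act on steroids and bile acids in the liver, all lay below the filter. Sult1e1, the estrogen sulfotransferase, had a TPM of 0.12 in a single RhoB-/- library and was listed at 0 in the others. Of the 10 low genes with TPM above 0 in at least 5 libraries, Sult6b1 had 0.212 ± 0.0841 (SD, n = 5) in WT and 0.400 ± 0.147 in RhoB-/- libraries (exact permutation test two-sided, unadjusted p = 0.0397). Its groups overlapped, and the other 9 had exact permutation p-values of 0.214 to 0.929. None of the low genes had groups without overlap.

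The genes around the conjugation enzymes were taken from 8 lists of 117 genes. The lists cover donor supply, other conjugation and related enzymes, export, deconjugation, regulators and their targets. Of these, 95 entered the test, 11 rose, 6 fell and 78 were not called, and their median log2 fold change was 0.01. Of all tested genes 5.58% were higher and 7.13% lower, so the 6 that fell are near the background share, and the counts per list below are descriptions. For sulfation, 1 of 9 tested supply genes rose, the sulfate transporter Slc13a1 (log2 fold change 1.40, limma adjusted p = 6.64e-04), from a TPM of 3.22 ± 1.14 to 9.94 ± 2.09. The PAPS synthase Papss2 had a log2 fold change of 0.08 and Papss1 -0.26, neither past the test. For glucuronidation, 2 of 7 rose, hexokinase gene Hk2 (1.06, limma adjusted p = 0.01196) and the UDP-sugar transporter Slc35d1 (0.61, limma adjusted p = 0.00792), while Ugdh, which makes UDP-glucuronate, had -0.21. For glutathione, 1 of 13 rose (Slc3a1, part of a cystine transporter, 1.02) and 1 fell (Cbs, which makes cystathionine, -0.65, limma adjusted p = 0.0270), and the subunits of the enzyme that starts glutathione synthesis had -0.34 (Gclc) and -0.01 (Gclm), neither past the test.

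Of 16 tested genes of other conjugation and related enzymes, some of which do not conjugate, none rose and 2 fell. These were Mgst1, a membrane-bound enzyme with GST activity (log2 fold change -0.85, limma adjusted p = 0.00803), from a TPM of 260.6 ± 23.0 (SD, n = 5) to 149.4 ± 49.5, and the epoxide hydrolase Ephx1 (-0.74, limma adjusted p = 0.00733). Of 10 exporters, 2 rose and 2 fell. The bile acid exporter subunits Slc51a (1.49, limma adjusted p = 4.58e-04) and Slc51b (1.498, limma adjusted p = 3.22e-04) rose, and Abcc4 (-1.05, limma adjusted p = 0.00309) and Abcc1 (-0.65, limma adjusted p = 0.0137), pumps for conjugates, fell. None of 8 deconjugating enzymes was called.

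Among 20 regulators 1 was called, the bile acid receptor Nr1h4, which rose (log2 fold change 1.002, limma adjusted p = 4.83e-04). The genes of the regulators best known for inducing conjugation enzymes had -0.23 for Nfe2l2, -0.29 for Ahr and 0.01 for Nr1i2, with limma adjusted p-values of 0.178, 0.115 and 0.959. Of 12 tested canonical targets of these regulators, 4 rose and 1 fell. Cyp3a13 (1.23), Ces2c (1.09), Ces2e (0.79) and the antioxidant gene Srxn1 (0.79) rose, whereas heme oxygenase Hmox1 fell (-0.88, limma adjusted p = 0.0135). Nqo1, another such target, had -0.56, under the fold limit. Slc3a1 was not called without the library labelled RhoB-/- replicate 5 (0.94, limma adjusted p = 0.0518) or without WT replicate 4 (0.91, limma adjusted p = 0.0588), and Abcc1 fell under the fold limit without RhoB-/- replicate 2 (-0.57) or WT replicate 4 (-0.55). Cbs lost its call without RhoB-/- replicate 1 or 2 or WT replicate 2 or 4 (adjusted p up to 0.0756 in limma), and Slc35d1 fell under the fold limit without RhoB-/- replicate 4 or 5 or WT replicate 1 or 2 (lowest 0.54).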

How the data were processed

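RNA of colonic IECs from 5 WT and 5 RhoB-/- samples, grouped by their titles, was analyzed. The authors sequenced paired-end reads of 150 bp, cleaned them (SeqPrep, Sickle), mapped them with HISAT2, and used StringTie for assembly and RSEM for gene levels. The submitters' processing notes also name edgeR and GRCm38.p6, and versions were not given in the sources used here. The deposited TPM values are rounded to 2 decimals. TPM keeps no depth, so the counting error of each value is unknown and precision rests on 5 libraries a group.

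The members and gene lists were chosen with earlier results of these data known. Genes reaching a mean TPM of 1 were fitted on log2(TPM + 1) with lmFit and eBayes with a trend in limma 3.58.1 (R 4.3.3), with Benjamini-Hochberg adjustment over 12870 genes. The fit was tested on simulated data. Below the filter, an exact two-sided permutation test was used, with a smallest p of 0.00794. Gene positions and transcripts are from GENCODE M21 (GRCm38) and promoters from RefSeq. Every gene past the filter is named with its group values. TPM in each library is given for called genes and for the 5 most abundant, and added, after values were seen, for Gstm5 and Sult1b1. Of the called supporting genes the 15 with the largest change are named. Cbs and Slc35d1, and the markers, supply genes and regulators named without a call, were added after values were seen.

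Alternatives were a pseudocount of 0.1, no filter, a mean TPM of at least 5, quantile normalization, recentring, leaving out mitochondrial genes, limma without trend, a replicate block, other thresholds and leaving out each library. Replicate numbers are shared between genotypes, but nothing in the sources pairs the samples. All 10 libraries entered the main comparison, and count tests were not run.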

Additional observations from a re-analysis of the deposited data

Results flagged for a closer look

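Each genotype's 5 libraries were screened for a value far from the others by Dixon's test at the 95% level. This was done for the 34 tested conjugation genes, and 7 of 68 groups had such a value, where chance alone gives about 1 in 20 groups, or 3.4. Of the 7 values, 3 were in WT replicate 1, the library with the highest mitochondrial share (26.5%), and all 3 were the lowest of their group. Gstm5 had a TPM of 35.04 there, with the next WT library at 48.76. Gstt1 had 19.66 there, with the next at 31.97. Ugt2b34 had 158.75 there, with the next at 200.31. In WT replicate 4 Gstm3 had the highest WT value, 134.16, and in WT replicate 2 Gstp2 had the highest WT value, 120.46. In RhoB-/- libraries the high values were Sult2b1 at 98.89 in the library labelled RhoB-/- replicate 5 and Ugt2b35 at 7.82 in RhoB-/- replicate 3. The reasons were not tested.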

How the results depend on the processing

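Of the 13 called genes, 10 were called in all 18 other settings of the fit. Gsta4 lost its call without the filter, without the library labelled RhoB-/- replicate 5 and without WT replicate 4 (adjusted p up to 0.0631). Gstm4 fell under the fold limit after quantile normalization, recentring and leaving out RhoB-/- replicate 2, and Ugt1a1 was called in 9 of 18 (adjusted p up to 0.0944). The number of conjugation genes called higher was 1 without a filter, with quantile normalization and with mitochondrial genes left out, 3 after recentring and with no fold limit, and 1 to 2 with each library left out in turn. The number called lower was 10 to 13 over all settings. Of the supporting genes, 16 were higher and 11 lower with no fold limit. The replicate block gave 2 genes higher and 11 lower, as without it, and same-numbered samples did not deviate together (correlations of -0.0874 to 0.072, with 1 of 5 WT libraries closest to its own number). Over all tested genes, recentring gave 950 higher and 539 lower, quantile normalization 845 and 581, and leaving out mitochondrial genes 671 and 1426, compared with 718 and 918.

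Signs turned only in genes that did not pass the test. With mitochondrial genes left out the log2 fold change was -0.054 for Gstp1, -0.0018 for Sult1d1, -0.0085 for Ugt1a7c and -0.018 for Ugt2b34. With quantile normalization it was 0.081 for Gstp3, -0.0006 for Sult1d1, -0.032 for Ugt1a7c, -0.040 for Ugt2b34 and 0.019 for Ugt2b38. Recentring gave 0.041 for Gstp3 and 0.039 for Ugt2b5, and a pseudocount of 0.1 gave -0.011 for Ugt1a2. With each library left out in turn it ran from -0.037 to 0.11 in Gstp1, -0.33 to 0.14 in Gstp2, -0.21 to 0.0067 in Gstp3, -0.030 to 0.19 in Sult1d1, -0.047 to 0.41 in Ugt1a2, -0.45 to 0.025 in Ugt1a5, -0.004 to 0.15 in Ugt1a7c, -0.018 to 0.086 in Ugt2b34 and -0.22 to 0.055 in Ugt2b5. The causes were not tested. Depth could not be assessed from TPM.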
